A study of Mus musculus with 15 samples.

Results

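The genes described here encode proteins of the glomerular basement membrane, the sheet of extracellular matrix that lies between the podocytes and the endothelial cells of the kidney filter. They are 10 of the 46517 genes counted in the RNA files, chosen by name: the collagen IV chains Col4a1, Col4a2, Col4a3 and Col4a4, the laminin chains Lama1, Lama5, Lamb1 and Lamb2, the heparan sulfate proteoglycan agrin (Agrn) and nidogen-1 (Nid1). All 10 passed the filter on low counts. The question put to them was whether mature and immature chains of this matrix differed between Dnmt1 knockout and control kidneys.

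The samples came from C57BL/6 mice. RNA was sequenced from 3 controls, which carried floxed Dnmt1 alleles and no Cre (Dnmt1 f/f), and from 3 knockouts (KO), which carried the same floxed alleles with Six2Cre (Six2Cre Dnmt1 f/f), all at postnatal day 0 (P0). Reduced representation bisulfite sequencing (RRBS), which reads CpG methylation in restriction fragments rich in CpG, was run on 3 controls and 3 KO samples of the same 2 genotypes and age and on 3 wild-type adults of 6 weeks. Six2 is a transcription factor of nephron progenitors, the cells that give rise to podocytes and to most of the nephron tubule, and Six2Cre is used to recombine floxed alleles in that lineage rather than in endothelium, stroma or ureteric bud. Six2-positive cells are given as the source in the labels, but their protocol describes DNA from whole kidneys, and the RNA libraries held transcripts of endothelium, stroma and leukocytes. Nothing in the labels says whether the replicates are separate animals, so the p-values measure the spread between these samples, which may be technical.

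Collagen IV is a network of triple helices, each built from 3 alpha chains. In the developing glomerulus the network of alpha 1 and alpha 2 chains is made first, and podocytes later add the network of alpha 3, alpha 4 and alpha 5 chains, whose loss causes Alport syndrome. Laminins are trimers of an alpha, a beta and a gamma chain, and in the glomerulus the alpha 1 and beta 1 chains give way to alpha 5 and beta 2. Lamb2 is the gene of Pierson syndrome. Agrin links laminin to cell surface receptors, and nidogen-1 bridges the laminin and collagen IV networks.

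The collagen IV genes lie in head-to-head pairs, and promoter windows are shown because the 2 genes of each pair changed in the same direction. In GRCm38, Col4a1 occupied chromosome 8 from 11198423 to 11312889 and Col4a2 from 11312805 to 11449287, bounds that share 85 bases. Col4a3 occupied chromosome 1 from 82586921 to 82722059 and Col4a4 from 82448419 to 82587034, bounds that share 114 bases. Of the 10 genes, 8 matched the RefSeq promoter table (GRCm38.p6), whose windows run from 250 bases before a start to 50 after it, and Col4a3 and Lama1 did not. The windows are written 5′ to 3′ on each gene's own strand, with every CpG, the site that DNA methylation occupies, in capitals. Lamb2 is added because its window is poor in CpG.
Col4a1 (chr8:11312777-11313076, minus strand): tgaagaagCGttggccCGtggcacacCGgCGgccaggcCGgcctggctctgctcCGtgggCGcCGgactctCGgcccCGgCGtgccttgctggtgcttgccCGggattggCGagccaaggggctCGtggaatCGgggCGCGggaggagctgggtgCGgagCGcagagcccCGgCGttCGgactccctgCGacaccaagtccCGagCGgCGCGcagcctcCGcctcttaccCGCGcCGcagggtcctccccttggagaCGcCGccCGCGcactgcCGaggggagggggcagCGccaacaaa
Col4a2 (chr8:11312555-11312854, plus strand): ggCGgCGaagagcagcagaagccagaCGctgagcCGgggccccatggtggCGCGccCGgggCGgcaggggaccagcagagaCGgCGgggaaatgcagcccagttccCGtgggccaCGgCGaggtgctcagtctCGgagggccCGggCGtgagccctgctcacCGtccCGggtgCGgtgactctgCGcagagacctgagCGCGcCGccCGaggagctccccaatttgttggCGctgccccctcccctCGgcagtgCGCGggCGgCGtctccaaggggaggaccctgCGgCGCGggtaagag
Col4a4 (chr1:82586800-82587099, minus strand): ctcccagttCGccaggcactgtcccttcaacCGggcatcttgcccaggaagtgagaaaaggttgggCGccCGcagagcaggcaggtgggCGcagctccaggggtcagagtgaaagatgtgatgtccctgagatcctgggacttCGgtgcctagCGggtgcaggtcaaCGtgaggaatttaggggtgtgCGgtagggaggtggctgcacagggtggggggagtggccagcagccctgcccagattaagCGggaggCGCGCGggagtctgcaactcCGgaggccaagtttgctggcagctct
Lamb2 (chr9:108479612-108479911, plus strand): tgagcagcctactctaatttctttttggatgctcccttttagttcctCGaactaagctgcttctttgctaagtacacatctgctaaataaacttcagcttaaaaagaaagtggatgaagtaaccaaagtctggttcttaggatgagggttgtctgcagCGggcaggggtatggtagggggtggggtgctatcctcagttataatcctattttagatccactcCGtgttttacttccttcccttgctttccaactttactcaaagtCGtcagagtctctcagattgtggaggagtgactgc

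The Col4a1 and Col4a2 windows overlap by 78 bases on opposite strands, and their starts lie 21 bases apart. The Col4a1 window held 37 CpGs and the Col4a2 window 33, against a median of 7 over the 32851 windows of the promoter table. Agrn had 42 at its first listed start and 11 at its second, Lama5 had 24, Nid1 20, Lamb1 18, Col4a4 14 and Lamb2 4. Every member window except that of Lamb2 thus held more CpGs than the median, those of the mature chains Lama5 and Col4a4 included. CCAAT, read as CCAAT or ATTGG, occurred once in each window of Col4a1, Col4a2, Lamb1 and Nid1 and in 37.4% of all windows. GGGCGG, read as GGGCGG or CCGCCC, occurred 3 times at Col4a2, 1 time at Col4a1 and 0 times at Col4a4 and Lamb2, and in 35.7% of all windows. TAATTA, a palindrome searched because LMX1B is a homeodomain factor, occurred in none of the member windows and in 5.29% of all windows.

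The RNA libraries held between 26773937 and 34102567 gene counts. Dnmt1, the targeted gene, had 180, 156 and 188 CPM (counts relative to library size, which was scaled by TMM, edgeR's trimmed mean method) in controls and 110, 111 and 93.7 CPM in KO, a log2 fold change of -0.74 (SE 0.12, edgeR adjusted p 0.00577). Control 3 stood apart from the other controls in markers of the proximal tubule, whose 7 genes summed to 3878 CPM there against 1964 and 1763 CPM in controls 1 and 2 and 375 to 435 CPM in KO. The RRBS libraries held between 18424875 and 88765177 calls, the lowest in KO 3.

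The 4 collagen IV genes fell in KO and the laminin genes did not pass the test (edgeR quasi-likelihood test, Benjamini-Hochberg adjustment over 18132 genes, threshold 0.05). The test called 4 of the 10 lower and none of them higher, against 8.23% of all tested genes lower and 6.36% higher. By limma voom with quality weights 8 were lower, where 14.3% of all tested genes were lower and 13.5% higher. By DESeq2 6 were lower, where 10.5% were lower and 8.9% higher, and by both methods 0 of the 10 were higher. In 8 of the 10, all 3 KO libraries lay below all 3 controls, which held for 17.8% of tested genes, and in 0 of the 10 all KO libraries lay above, which held for 16.5%. The median log2 fold change of the 10 was -0.44, against -0.00074 over all tested genes. The 10 genes were chosen with earlier results of these data known. The values over all genes are therefore a description and no test of the set. The immature and mature groups did not separate: each had 2 of its 4 chains lower, with medians of -0.67 and -0.59. The count depended on single libraries, and so did the number of genes called lower over all tested genes. The latter was 701 of 18649 without KO 1, 779 of 18705 without KO 2 and 790 of 18678 without KO 3. It was 1012 of 18678 without control 1 and 2561 of 18533 without control 3, against 1493 of 18132 with all libraries. Without KO 1 none of the 10 passed (3884 genes then had an unadjusted p under 0.05, and limma voom and DESeq2 were not run on that subset), without KO 3 only Col4a2 did, without control 1 or KO 2 Col4a2 and Col4a3 did, and without control 3 the 4 collagen genes, Lama1 and Lamb1 did.

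**Figure D1:**
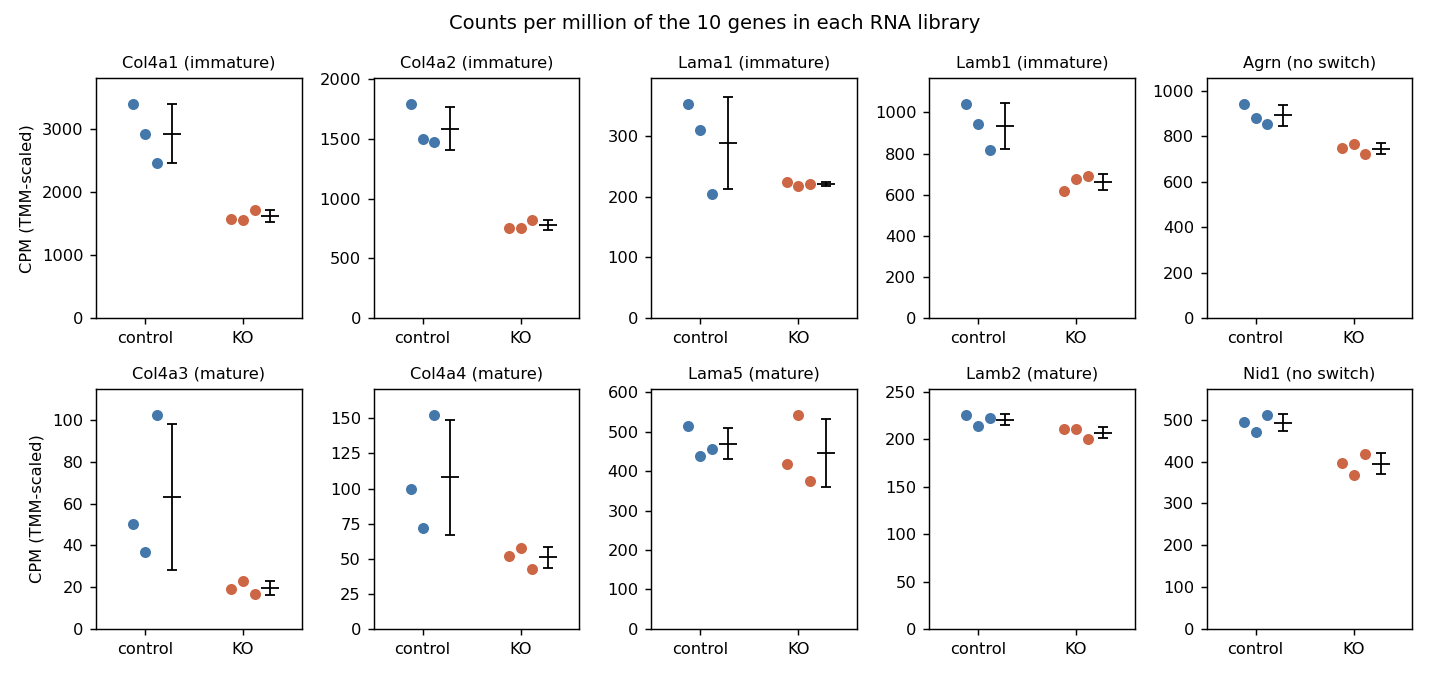
Each panel plots 1 gene in the 6 RNA libraries (points, replicates 1 to 3 from left to right; y axis, TMM-scaled CPM, starting at 0), with the group mean and SD as a bar beside them. All KO points lie below all control points for 8 genes, and the groups overlap for Lama1 and Lama5; Col4a3 and Col4a4 are highest in control 3, at 102 and 153 CPM.

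Among the immature collagen chains, Col4a1 (ENSMUSG00000031502), which encodes the alpha 1 chain found in nearly all basement membranes, had 3397, 2924 and 2464 CPM in controls and 1581, 1561 and 1724 CPM in KO. The lowest control exceeded the highest KO library. Its level fell from 2928 ± 467 to 1622 ± 88.7 CPM (SD, n = 3 each), a log2 fold change of -0.85 (SE 0.21, edgeR adjusted p 0.028). Col4a2, the alpha 2 chain that assembles with alpha 1, had 1792, 1499 and 1472 CPM in controls and 754, 754 and 826 CPM in KO. The groups were far apart and the KO libraries close together. Col4a2 fell by 1.03 on the log2 scale (SE 0.17, edgeR adjusted p 0.00507), a 2.04-fold decrease with a 95% interval from 1.56 to 2.67. It was the member with the smallest p. The call of Col4a1 was lost without any single KO library or without control 1 or 2, with log2 fold changes from -0.90 to -0.74 in those fits.

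Among the mature collagen chains, Col4a3, the alpha 3 chain that carries the Goodpasture antigen, had 50.2, 36.6 and 102 CPM in controls and 19.0, 23.1 and 16.6 CPM in KO. Control 3 was well above the other controls, and the lowest control was above every KO library. Col4a3 fell by 1.69 on the log2 scale (SE 0.35, edgeR adjusted p 0.0157), the largest difference among the 10 genes, a 3.22-fold decrease with a 95% interval from 1.84 to 5.64. Col4a4, the alpha 4 chain made with alpha 3, had 99.8, 71.7 and 153 CPM in controls and 52.2, 57.6 and 42.9 CPM in KO. Its order across libraries was that of Col4a3, with control 3 highest, control 2 lowest among controls and KO 3 lowest of all. Col4a4 fell by 1.09 (SE 0.26, edgeR adjusted p 0.026). Without control 3, Col4a3 and Col4a4 still passed, at log2 fold changes of -1.15 and -0.75. Without KO 1 or KO 3 neither did, at -1.66 and -1.10 and at -1.58 and -0.98, and Col4a4 alone was lost without control 1 or KO 2.

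The laminin alpha chains did not pass the edgeR test. Lama1, the alpha 1 chain of early epithelial basement membranes, had 352, 309 and 205 CPM in controls and 224, 217 and 221 CPM in KO. Control 3 lay below all KO libraries, so the groups overlapped. A log2 fold change of -0.39 (SE 0.19) gave an edgeR adjusted p of 0.238, and it passed without control 3, at -0.58 (adjusted p 0.00292), and with limma voom, at -0.56 (adjusted p 0.00521). Lama5, the alpha 5 chain of the mature membrane, had 514, 438 and 456 CPM in controls and 419, 543 and 376 CPM in KO, with KO 2 the highest of the 6. Its log2 fold change was -0.07 with a 95% interval from -0.47 to 0.32 (edgeR adjusted p 0.833), and its sign was positive with upper quartile scaling (0.0082) and without KO 3 (0.034).

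The beta chains differed from each other in where their KO values lay. Lamb1, the beta 1 chain of early laminins, had 1040, 941 and 819 CPM in controls and 617, 676 and 693 CPM in KO. All KO libraries were below all controls, and the log2 fold change of -0.50 (SE 0.16) had an edgeR adjusted p of 0.0746. It passed with limma voom, with DESeq2 and without control 3. Lamb2, the beta 2 chain that joins the mature filter, had 226, 214 and 223 CPM in controls and 211, 211 and 201 CPM in KO. The groups did not overlap but differed little. The log2 fold change was -0.09 with a 95% interval from -0.33 to 0.15 (edgeR adjusted p 0.642), which leaves room for a decrease of up to 1.26-fold.

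The 2 genes without a mature partner were also below control in every KO library. Agrn had 942, 881 and 854 CPM in controls and 747, 769 and 723 CPM in KO, a log2 fold change of -0.26 (SE 0.14, edgeR adjusted p 0.289). Nid1 had 494, 471 and 512 CPM in controls and 397, 369 and 418 CPM in KO, a log2 fold change of -0.32 (SE 0.13, edgeR adjusted p 0.145). Neither passed the threshold, and both did with limma voom. Nid1 also passed with DESeq2 (DESeq2 adjusted p 0.0496), where Agrn did not (DESeq2 adjusted p 0.107).

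**Figure D2:**
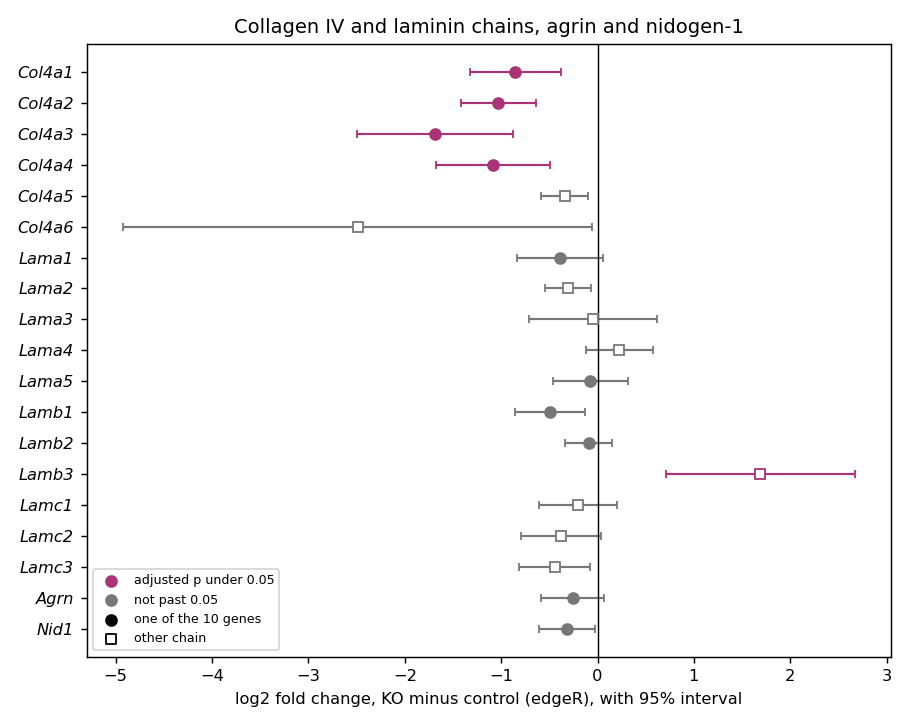
The x axis gives the log2 fold change of KO against control with its 95% interval for all collagen IV and laminin chains, Agrn and Nid1 (y axis); filled circles are the 10 genes, open squares other chains, and purple marks an adjusted p under 0.05. The 4 purple circles are Col4a1 to Col4a4, from -1.69 to -0.85, and the purple square is Lamb3 at 1.69.

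Ratios of mature to immature chains within a library, in which library size cancels, were taken to describe the switch; a gene's length also cancels in their difference between groups. The log2 ratio of Lamb2 to Lamb1 counts was -2.20, -2.14 and -1.88 in controls and -1.55, -1.68 and -1.79 in KO. All KO libraries were above all controls, as Lamb1 counts differed between the groups by more than Lamb2 counts did. The log2 ratio of Lama5 to Lama1 was 0.55, 0.50 and 1.16 in controls and 0.90, 1.32 and 0.77 in KO, with control 3 inside the range of the KO libraries. The log2 ratio of Col4a3 plus Col4a4 to Col4a1 plus Col4a2 was -5.11, -5.35 and -3.95 in controls and -5.03, -4.84 and -5.42 in KO. Control 3 alone was above the rest, the difference of -0.29 was smaller than the SD of 0.75 between controls, and without control 3 the difference turned to 0.13. The Lamb2 to Lamb1 ratio was higher in KO by 0.40, more than the SD of 0.17 between controls, and by 0.33 to 0.50 without any 1 library. The Lama5 to Lama1 difference of 0.26 was smaller than the SD of 0.37 between controls. It was 0.10 without KO 2, 0.15 without control 2, 0.17 without control 1 and 0.47 without control 3. No p is given for these ratios, since their genes were chosen with results of these data known.

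**Figure D3:**
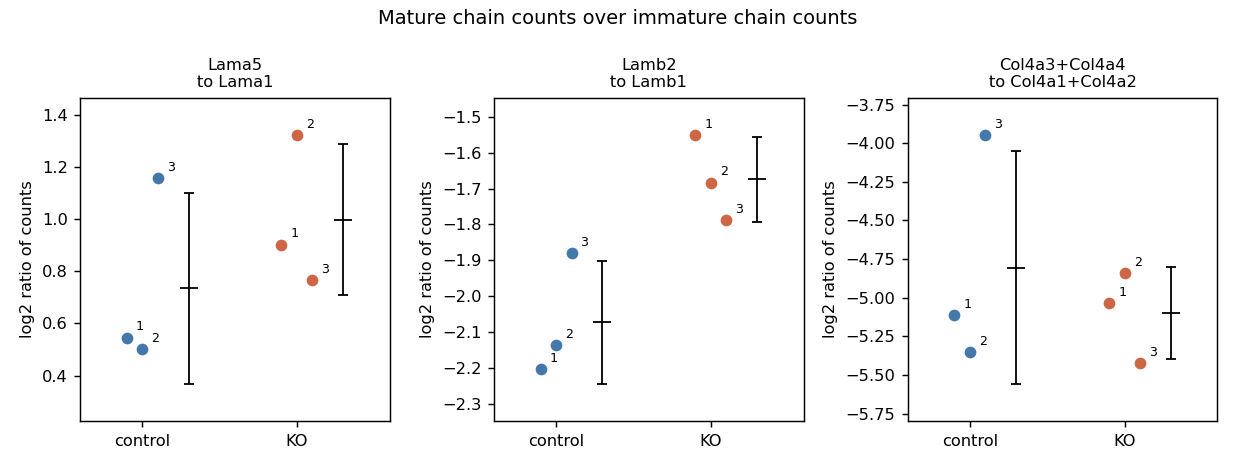
Each panel plots the log2 ratio of mature to immature chain counts (y axis, not starting at 0) in the 6 RNA libraries, numbered by replicate, with the group mean and SD. The groups separate for Lamb2 to Lamb1, at -2.20 to -1.88 in controls and -1.79 to -1.55 in KO, and overlap in the other panels, where control 3 stands above controls 1 and 2.

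The other chains of the same families gave 1 higher and 0 lower of 9 tested, and 3 lower without control 3. Lamb3, a chain of the laminin of stratified and ureteric epithelia, rose by 1.69 on the log2 scale (SE 0.43, edgeR adjusted p 0.0331), from 3.93, 3.79 and 5.71 CPM in controls to 19.6, 17.9 and 5.89 CPM in KO. KO 3 was barely above the highest control, and the call was lost in fits without KO 1 or 2 and without control 1 or 2. Col4a5, the third chain of the mature collagen network, had 189, 189 and 166 CPM in controls and 142, 147 and 140 CPM in KO. The groups did not overlap, and the log2 fold change of -0.34 had an edgeR adjusted p of 0.0711. Col4a6, which pairs with Col4a5 in its locus, had 1.34, 1.65 and 25.5 CPM in controls and 1.37, 2.33 and 1.37 CPM in KO, so that control 3 stood alone (log2 fold change -2.49, edgeR adjusted p 0.168). Lamc1, the gamma chain of most laminins, had a log2 fold change of -0.20 (adjusted p 0.517).

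Among 16 other basement membrane proteins, 7 were lower and 1 was higher in KO. The decreases included Tinag and Tinagl1, tubulointerstitial nephritis antigen and its relative, at log2 fold changes of -2.48 and -1.40. Ntn4, netrin-4, which binds laminin gamma chains, stood at -1.75 and Col15a1, a collagen of vascular and stromal basement membranes, at -1.07 (edgeR adjusted p from 0.000389 to 0.00239 for these 4 genes). Egfl6, at -0.86, and Npnt, at -0.63, which encodes the ligand nephronectin of integrin alpha 8, were also among them, as was Nid2, the relative of Nid1, at -0.44 (edgeR adjusted p 0.0166, 0.0198 and 0.0482). Smoc2, a matricellular calcium-binding protein, rose by 1.01 (edgeR adjusted p 0.00168). The number lower was 4 without KO 1 and 10 without control 3.

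Among 14 genes for folding and crosslinking of collagen, 1 was lower and 1 higher. P3h2, a prolyl 3-hydroxylase that acts on collagen IV, had 48.0, 35.6 and 83.2 CPM in controls and 21.5, 20.7 and 19.8 CPM in KO (log2 fold change -1.43, edgeR adjusted p 0.012). Its highest library was control 3, as for Col4a3 and Col4a4. P4ha2, a prolyl 4-hydroxylase subunit, rose by 1.11 (edgeR adjusted p 0.0144), and the collagen chaperone Serpinh1 had a log2 fold change of 0.04 (adjusted p 0.937). The P3h2 call was lost without any 1 of the KO libraries and the P4ha2 call without KO 2 or without KO 3.

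Among 14 receptors for basement membrane proteins, 4 were lower and 0 higher. They were Itga8, the nephronectin receptor subunit (-0.79), Itga6 and Dag1, which bind laminins (-0.71 and -0.64), and Itga1, which binds collagen IV (-0.66), with edgeR adjusted p from 0.00268 to 0.0181. Itga3 and Itgb1, which form the main laminin receptor of podocytes, had log2 fold changes of -0.01 and -0.02 (adjusted p 0.966 and 0.963). The number lower was 2 without KO 1 and 7 without control 3.

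Of 10 listed regulators, 2 were lower and 0 higher. Among them Wt1, which is expressed in nephron progenitors and podocytes, fell by 0.59 (edgeR adjusted p 0.0324), a call lost with upper quartile scaling and in fits without control 1, KO 1 or KO 2. Lmx1b, a homeodomain factor needed for Col4a3 and Col4a4 expression in podocytes, had 13.5, 14.2 and 16.7 CPM in controls and 10.9, 13.0 and 13.0 CPM in KO. The log2 fold change of Lmx1b was -0.27 (edgeR adjusted p 0.353).

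Some markers of podocytes and endothelial cells, which make this membrane, were also lower. Of 14 podocyte markers, 8 were lower and 0 higher, with Podxl (podocalyxin) at -1.98, and their sum was 1578 to 2069 CPM in controls and 1144 to 1236 CPM in KO. Cd2ap and Dach1 had all KO libraries above all controls, at log2 fold changes of 0.42 and 0.16, and did not pass. Of 11 endothelial markers, 6 were lower and 0 higher, with Tek at -0.85 and Plvap at -1.08, and their sum was 1152 to 1627 CPM in controls and 716 to 916 CPM in KO. The podocyte and endothelial counts lower were 5 and 3 without KO 1, 6 and 3 without KO 2, and 8 and 11 without control 3, where 1 podocyte marker was higher. In RNA from mixed cells, fewer cells of a type and less RNA per cell cannot be told apart. A lower count of Col4a3 thus does not say which of them occurred. The part of podocyte or endothelial markers in the change of the collagen chains was not tested.

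The remaining marker lists moved less uniformly, apart from the proximal tubule. All 7 proximal tubule markers were lower, with Lrp2 at -2.22 and Aqp1 at -2.27. Of 8 mesangial and pericyte markers, 1 was lower (Cspg4, -0.59) and 1 higher (Des, 0.84), with sums of 1467 to 2217 CPM in controls and 941 to 1341 CPM in KO. Of 8 stroma markers, 3 were higher, among them Foxd1 (1.63) and Pdgfra (0.79), and the sums of 4275 to 5173 and 4012 to 4732 CPM overlapped. Of 6 nephron progenitor markers, Cited1 was lower (-2.53) and 2 were higher, among them Osr1 (0.95). Of 8 ureteric and collecting duct markers 2 were higher, Ret (0.92) and Calb1 (0.56), and of 7 leukocyte markers 2 were higher, C1qa (1.14) and Ptprc (0.79). Without control 1 or without KO 1 the higher calls of the progenitor, ureteric and leukocyte lists were all lost, as were those of the progenitor and ureteric lists without KO 2 or KO 3. Without control 3 each of these 3 lists had 3 higher. Over all tested genes, 647 were higher without KO 1 and 2512 without control 3, against 1153 with all libraries. The Cspg4 call was lost without control 1, KO 1 or KO 2. None of the 6 tested erythroid or 4 smooth muscle markers passed (3 erythroid markers were lower without control 3), and no listed marker had a count of 0 in all 6 libraries. The sums overlapped between groups for the ureteric list (799 to 1386 and 1050 to 1517 CPM), the leukocyte list (91.1 to 117 and 101 to 162 CPM), the erythroid list (391 to 1284 and 615 to 909 CPM) and the smooth muscle list (214 to 264 and 138 to 326 CPM). For the progenitor list they overlapped by little (323 to 375 and 374 to 412 CPM).

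The genes whose pattern over the 6 RNA libraries was most like that of Col4a3 included Cmbl, Proc, Pbld2 and Glyctk, with root mean square distances of 0.114 to 0.15 in log2 CPM relative to each gene's control mean, among 13081 genes compared. Cmbl, for example, had 17.7, 15.3 and 40.01 CPM in controls and 8.10, 8.36 and 7.03 CPM in KO. Control 3 was the highest library for all 4 of these genes. This follows from their choice by likeness to Col4a3, which is itself highest in control 3. Col4a4 ranked 182 by the same distance (0.402), Col4a2 595 and Col4a1 985, and the laminins, Agrn and Nid1 ranked from 1922 to 4655.

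CpG methylation was read at the same genes in RRBS libraries, a measurement that did not enter the choice of genes. Within 1000 bases of a start, positions with at least 10 calls in all 9 libraries had low methylation throughout. At the Lama5 start, 7 positions had 0.68%, 2.07% and 0% in controls and 0.55%, 0% and 0% in KO. At the first Agrn start, the mean of 11 positions was 0.51% ± 0.22 for the 3 controls and 1.10% ± 1.23 for the 3 KO libraries (SD). At the Nid1 start, the mean of 5 positions was 1.123% ± 0.39 and 2.23% ± 3.86. The controls lay inside the KO range at Agrn and Nid1, where KO 3 and KO 2 were high at 2.52% and 6.69%. With at least 5 calls, 59 positions at the first Agrn start had 0.56%, 0.43% and 0.51% in controls and 1.09%, 1.73% and 1.21% in KO, every KO library then lying above every control (exact permutation p 0.1, the smallest that 3 against 3 allows).

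Near the Lamb1 start, 3 positions had 1.75%, 0.83% and 1.39% in controls and 0% in all KO libraries, the exact permutation p being 0.1, the smallest that 3 against 3 allows. The direction turned to 1.63 points within 2000 bases. All KO libraries were below all controls at 20% of 14353 RefSeq starts and above them at 2.86%. A single position near the Col4a3 and Col4a4 heads had 5.41%, 8.33% and 2.56% in controls and 1.64%, 2.99% and 5.26% in KO, which overlapped (19 to 96 calls). At the lower annotated bound of Lama1, 3 positions averaged 0.91% in controls and 1.123% in KO, with overlap.

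The shared Col4a1 and Col4a2 start had no position with 10 calls in every library. With at least 5 calls, 24 positions there had 0%, 1.05% and 0.97% in controls and 1.06%, 1.116% and 1.35% in KO. Every KO library was above every control, by little over control 2 (exact permutation p 0.1). Adults averaged 0.88% ± 0.72 there (SD, n = 3). No position with 10 calls lay near the Lamb2 start or the second Agrn start. At the starts that were read with at least 10 calls, no P0 or adult library exceeded 8.33%. These values come from few positions, and none of them lay inside a promoter window of the members. The CpGs marked in the printed windows were thus not read at this minimum of calls.

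Methylation over the whole annotated bounds was lower in KO at all 10 genes, a region chosen after seeing how few positions near starts were read. All KO libraries lay below all controls at each of the 10, as at 68.5% of 15409 protein-coding genes with a position, and above them at 0, against 0.74%. A decrease was thus the common state of gene bodies in KO. Each exact permutation p was 0.1, the smallest that 3 against 3 allows. The largest difference was at Lamb2, whose 15 positions had 90.4%, 89.2% and 94.0% in controls and 52.8%, 56.2% and 61.8% in KO. Adult libraries at Lamb2 averaged 90.0% ± 1.05, near the controls. At Nid1, with the smallest difference at this minimum of calls (-7.92 points), 13 positions had 44.4%, 44.6% and 45.3% in controls and 32.4%, 36.2% and 41.9% in KO. The Nid1 difference was -22.3 points with at least 20 calls and -13.5 points weighted by calls, and was then not the smallest. Of the 13 Nid1 positions, 7 were under 10% in controls and 6 were at 50% or more, against 0 and 15 at Lamb2. Over positions at 50% or more in controls, the difference was -18.8 points at Nid1, -17.5 at Lama5 and -34.2 at Lamb2. These positions were picked by the same control values, which by itself favours a lower KO mean. The 3 values are thus a description and no test.

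At Col4a3, 11 positions had 87.2%, 85.5% and 80.4% in controls and 66.6%, 56.7% and 66.4% in KO. The difference was -21.1 points at Col4a3, -14.9 at Col4a4, -11.7 at Col4a1 and -19.9 at Col4a2. It was -19.8 at Lama1, -11.5 at Lama5, -11.4 at Lamb1 and -27.9 at Agrn (-7.33 with at least 5 calls), against a median of -12.2 over the genes compared. The differences at the collagen genes lay inside the range of those at the laminin genes, Agrn and Nid1. Whether methylation within the bounds bears on the RNA of these genes was not tested.

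**Figure D4:**
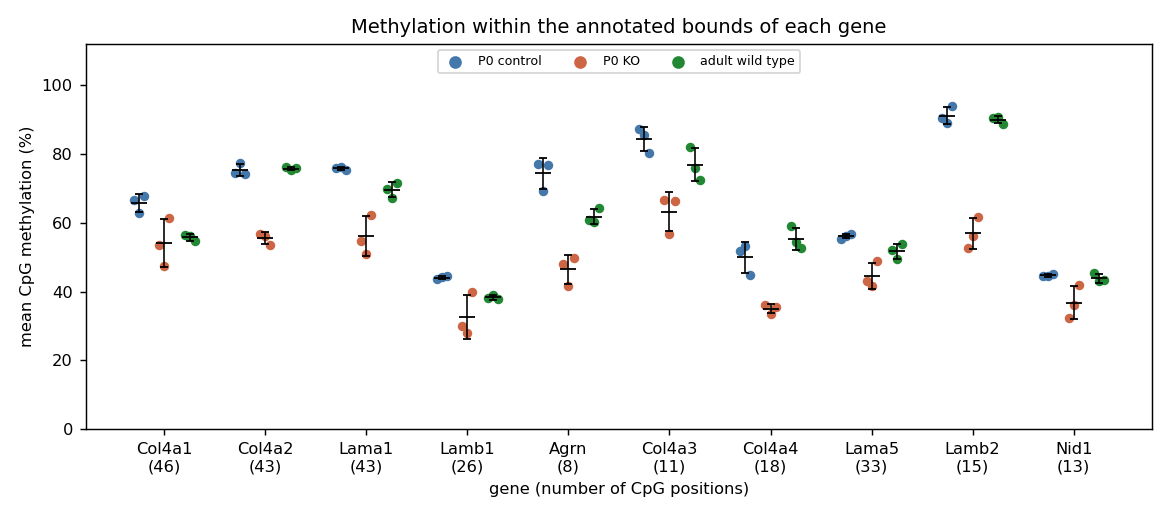
The y axis gives mean CpG methylation (%) within the annotated bounds of each of the 10 genes (x axis, with the number of positions), as points for each RRBS library (blue, P0 control; orange, P0 KO; green, adult wild type) and a bar for the group mean and SD. KO points lie below control points at every gene, by 34.2 points at Lamb2 and 7.92 points at Nid1, where 7 of 13 positions were under 10% in controls.

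Adults averaged less than controls at 8 of the 10 genes, by less than KO did at each of the 8, given as a description. The groups did not overlap at 5 of the 8. The share of all genes with either pattern was not computed, so neither count can be called unusual. Over all 360390 positions with at least 10 calls, the mean was 50.9% ± 0.32 in adults and 51.1% ± 0.19 in controls. Adults averaged 55.8% ± 0.95 against 65.8% ± 2.62 in controls at Col4a1 and 61.8% ± 2.13 against 74.4% ± 4.56 at Agrn (SD, n = 3 each). They averaged 69.6% against 75.9% at Lama1, 51.8% against 56.1% at Lama5 and 38.3% against 44.1% at Lamb1. The adult and control values overlapped at Col4a3 (76.9% against 84.4%), Lamb2 and Nid1. The means were higher in adults at Col4a4 (55.4% ± 3.27 against 49.96% ± 4.56) and Col4a2 (75.8% ± 0.45 against 75.5% ± 1.78), and at both the values overlapped.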

How the data were processed

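RNA was measured in 6 libraries and CpG methylation in 9. Per the submitters' processing notes, STAR 2.4.1d, HTSeq 0.6.1, Trim Galore and Bismark were used with builds mm10 and GRCm38; other settings are not given in the sources used here. The authors deposited raw read counts per gene, and 5 lines per file of unassigned reads were left out (1.35% to 1.75% ambiguous, 14.0% to 28.0% not uniquely aligned). They also deposited the percent methylation with methylated and unmethylated call counts per position. Gene IDs were matched to symbols for 46005 of 46517 genes.

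Counts were tested with edgeR 4.0.16 (quasi-likelihood, TMM, its low-count filter) in R 4.3.3. The same procedure was also run on simulated data, with an outcome that is not reported here. CPM values use TMM-scaled library sizes. Standard errors and 95% intervals come from the quasi-likelihood F statistic. Methylation was averaged over positions with at least 10 calls in all 9 libraries, each weighing the same, with two-sided exact permutation tests (Python 3.11.15). Percents at few positions are limited by counting error. Gene lengths were not used, so levels are not compared between genes.

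Named genes were all 10 members, Dnmt1, up to 6 genes past the threshold per list of related genes, 2 per marker list and the 5 genes most like Col4a3; some genes that this rule names are not reported here. Npnt, Nid2, Col4a5, Col4a6, Lamc1, Serpinh1, Itga3, Itgb1, Lmx1b, Cd2ap and Dach1 were added after their values were seen. The members and lists were chosen with earlier results of these data known. Alternatives were DESeq2 1.42.0, limma 3.58.1 voom, other scalings and filters, a replicate block, and each library left out.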

Additional observations from a re-analysis of the deposited data

How the results depend on the processing

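The 4 collagen genes, Lama1, Lamb1, Lamb2, Agrn and Nid1 kept a negative log2 fold change in all 14 alternatives, and Lama5 turned to 0.0082 with upper quartile scaling and 0.034 without KO 3, with a range from -0.25 to 0.034 across fits without 1 library. Col4a2 stayed past the threshold in 13 of 14, Col4a3 in 11, Col4a4 in 8 and Col4a1 in 7. Members lower in KO numbered 8 with limma voom and 1 (Col4a2) at an adjusted p under 0.01, and ranged from 0 to 6 across fits without 1 library. Over all genes, limma voom gave 2442 higher and 2595 lower, the 0.01 threshold 528 and 681, and at least 10 counts in every sample 678 higher; fits without 1 library gave 647 to 2512 higher and 701 to 2561 lower, the cause not being tested. Upper quartile scaling gave 1465 higher and 1224 lower, against 1153 and 1493.

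Samples of the same replicate number did not deviate together (correlations of -0.236, -0.065 and -0.124). With 3 libraries per group, such correlations cannot decide whether the numbers mark pairs. With a replicate block 3 members were lower, Col4a1 at -0.84 being lost (edgeR adjusted p 0.129), and 798 genes were higher and 1005 lower. The calls of Wt1, Lamb3, Dag1, Cspg4, Calb1 and Ptprc were also lost under the block. The collagen ratio turned to 0.13 without control 3 and ranged from -0.57 to 0.13 across omissions. Methylation near the Lama5 start turned to 0.33 points with at least 5 calls, and near Lamb1 to 1.63 within 2000 bases. Within gene bounds all 99 alternatives stayed negative, from -36.7 to -5.69 points; Agrn moved most, to -7.33 with at least 5 calls (the cause was not tested). With at least 10 calls no value was had for the Col4a1, Col4a2 and Lamb2 starts.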
